A study of Homo sapiens with 12 samples.

Results

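The laminin chain genes LAMA1, LAMA2, LAMA3, LAMA4, LAMA5, LAMB1, LAMB2, LAMB3 and LAMC1 were picked by symbol from the count table, 9 of 55773 entries, and are described across 4 groups of RBE cells. The set is named for LAMA4 and was put together with earlier results of these data known, so every LAMA4 value below is a description and carries no p. RBE is an established human cholangiocarcinoma line. Poly(A) RNA was sequenced from 12 libraries, 3 per group, to ask how 2-hydroxyglutarate (2-HG) alters what p53 directs. All cells spent 22 days in either vehicle (DMSO) or 5 µM AG-120, an inhibitor of mutant IDH1 that blocks 2-HG production. The vehicle and AG120 groups then received DMSO and no Nutlin. The vehicle_Nutlin and AG120_Nutlin groups received 5 µM Nutlin, an MDM2 inhibitor that activates p53, for 72 hours. The groups come from 1 cell line, and the labels do not say whether the replicates were separate cultures, so p-values measure the spread between these libraries, which may be technical.

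Laminins are secreted trimers of 1 alpha, 1 beta and 1 gamma chain and are the sheet-forming glycoproteins of the basement membrane. The alpha chain carries the domains that integrins and dystroglycan bind, and the beta and gamma chains complete the coiled coil. The alpha 5 chain (LAMA5) is the main alpha chain of most adult epithelia, including bile ducts, and alpha 3 (LAMA3) pairs with beta 3 (LAMB3) in the trimer that anchors epithelia at hemidesmosomes. The alpha 4 chain (LAMA4) is best known from vessels, muscle and other mesenchymal tissue, alpha 2 (LAMA2) from muscle and nerve, and alpha 1 (LAMA1) from the embryo.

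On hg19, LAMA4 lies on chromosome 6 from 112429963 to 112576141, LAMB2 on chromosome 3 from 49158547 to 49170551 and LAMC1 on chromosome 1 from 182992595 to 183114727. LAMA1 lies on chromosome 18 from 6941743 to 7117813. The windows around the annotated start of 3 chains are shown because LAMA4 was low in every Nutlin library while LAMB2 and LAMC1 were high there. Each runs 5′ to 3′ on the gene's strand, from 250 bases before the start to 50 after it, as RefSeq gives it on GRCh38.p14. Capitals mark GGGCGG on either strand, the only motif of those searched that occurs in these windows. The LAMA4 window is chr6:112254518-112254817 (minus strand), the LAMB2 window chr3:49133001-49133300 (minus strand) and the LAMC1 window chr1:183023170-183023469 (plus strand).
LAMA4: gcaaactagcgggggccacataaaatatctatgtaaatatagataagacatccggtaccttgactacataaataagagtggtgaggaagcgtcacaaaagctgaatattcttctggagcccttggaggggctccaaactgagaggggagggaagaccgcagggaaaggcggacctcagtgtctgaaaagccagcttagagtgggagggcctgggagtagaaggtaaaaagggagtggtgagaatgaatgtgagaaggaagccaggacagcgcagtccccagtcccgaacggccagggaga
LAMB2: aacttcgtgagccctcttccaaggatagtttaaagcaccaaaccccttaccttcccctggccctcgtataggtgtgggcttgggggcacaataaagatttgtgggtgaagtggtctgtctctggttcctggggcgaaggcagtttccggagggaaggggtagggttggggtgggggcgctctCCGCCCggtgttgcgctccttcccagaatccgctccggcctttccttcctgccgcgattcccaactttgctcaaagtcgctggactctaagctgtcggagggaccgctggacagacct
LAMC1: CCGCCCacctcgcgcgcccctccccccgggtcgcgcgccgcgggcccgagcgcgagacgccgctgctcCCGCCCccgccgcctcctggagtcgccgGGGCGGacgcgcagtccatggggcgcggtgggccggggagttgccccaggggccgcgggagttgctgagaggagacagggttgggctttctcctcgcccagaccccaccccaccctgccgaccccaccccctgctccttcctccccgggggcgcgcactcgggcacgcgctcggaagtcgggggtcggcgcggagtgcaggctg

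The LAMA4 window holds 51.3% G and C, the LAMB2 window 58.7% and the LAMC1 window 79.0%, against a median of 58.7% over all 35116 RefSeq windows of this length. GGGCGG occurs 3 times in the LAMC1 window, 1 time in the LAMB2 window and 0 times in the LAMA4 window, and in 45.0% of all windows. Windows were found for 8 of the 9 chains, and LAMA1 had none. None of the 8 chains' windows holds a p53 half-site (searched as the named consensus on both strands, in 6.63% of all windows) or TATAAA (in 11.5%). TTTGAA occurs in the LAMA2 and LAMB1 windows and in 15.2% of all windows, and TGANTCA, which reads the same on both strands, in the LAMA3 window, in 1 of 3 LAMB3 windows and in 7.71% of all windows. Of 4 matches of GGGCGG in the LAMB1 window 2 overlap each other. A match is only a description of these letters.

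Library totals ran from 16840161 to 27499433 counts, and all 9 chains passed the filter on low counts. MDM2 and CDKN1A, which p53 activates directly, set the Nutlin libraries apart, with CDKN1A at 371 to 489 CPM without Nutlin and 7840 to 10400 CPM with it (CPM is the count scaled to a common library size by the trimmed-mean method, in counts per 1e6). All 6 markers of biliary epithelium held counts, summing to 2704 to 4532 CPM over the libraries. The 6 endothelial markers in the table summed to at most 1.15 CPM and the 6 leukocyte markers to at most 0.686 CPM in any library, and CDH5 was at 0 counts in 3 of 4 groups. Of 9 fibroblast markers 5 or 6 held counts, and their sum was 50.7 to 55.1 CPM in vehicle, 10.6 to 13.98 CPM in vehicle_Nutlin, 48.4 to 52.3 CPM in AG120 and 5.53 to 6.41 CPM in AG120_Nutlin. The 5 markers of smooth muscle and pericytes summed to 15.3 to 23.4 CPM without Nutlin and 57.3 to 79.2 CPM with it. In chi-square per degree of freedom between replicate counts, vehicle_Nutlin replicate 3 differed from replicates 1 and 2 by 119 and 147. Replicates 1 and 2 differed from each other by 25.5. AG120 replicate 1 differed from replicates 2 and 3 by 30.8 and 47.5, against 9.42 between those. By this measure vehicle_Nutlin replicate 2 lay far closer to replicate 1 than replicate 3 did. Below, the 3 libraries that stood apart is a label for vehicle_Nutlin replicates 2 and 3 and AG120 replicate 1, left out together. Replicate 2 of vehicle_Nutlin is in that set although the distances above do not single it out from replicate 1. Leaving out vehicle_Nutlin replicate 3 or all 3 changed some calls and moved some values by more than 1.5 times. For most of these the value without them, or a range over the alternative analyses, is given beside the main one. A fit without all 3 has 1 vehicle_Nutlin library, which is assumed to vary like the other groups.

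Scaled per kilobase of the longest annotated transcript, so that chains can be set side by side, LAMB1 had the highest level of the 9 chains in vehicle cells, at 91.5 ± 3.56 CPM per kb (mean ± SD, n = 3). LAMB1 encodes beta 1, the most widespread beta chain. LAMA5 at 51.5 ± 3.72 and LAMC1 at 49.4 ± 2.54 CPM per kb came next and overlapped, and LAMA5 and LAMB1 led the alpha and the beta chains. LAMB3 followed at 19.4 ± 0.387, LAMB2 at 12.2 ± 1.24 and LAMA3 at 9.04 ± 0.626 CPM per kb, without overlap. LAMA4 stood at 1.19 ± 0.106 CPM per kb, below LAMA3 and above LAMA2 in every vehicle library. LAMA2 at 0.134 ± 0.0138 and LAMA1 at 0.0135 ± 0.0136 CPM per kb were near the limit of detection. In AG120_Nutlin cells LAMB1 (91.8 ± 1.38), LAMA5 (86.9 ± 3.00) and LAMC1 (82.8 ± 1.59 CPM per kb) still led, and LAMA4 (0.415 ± 0.0570) overlapped LAMA1 (0.362 ± 0.0162 CPM per kb).

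**Figure D1:**
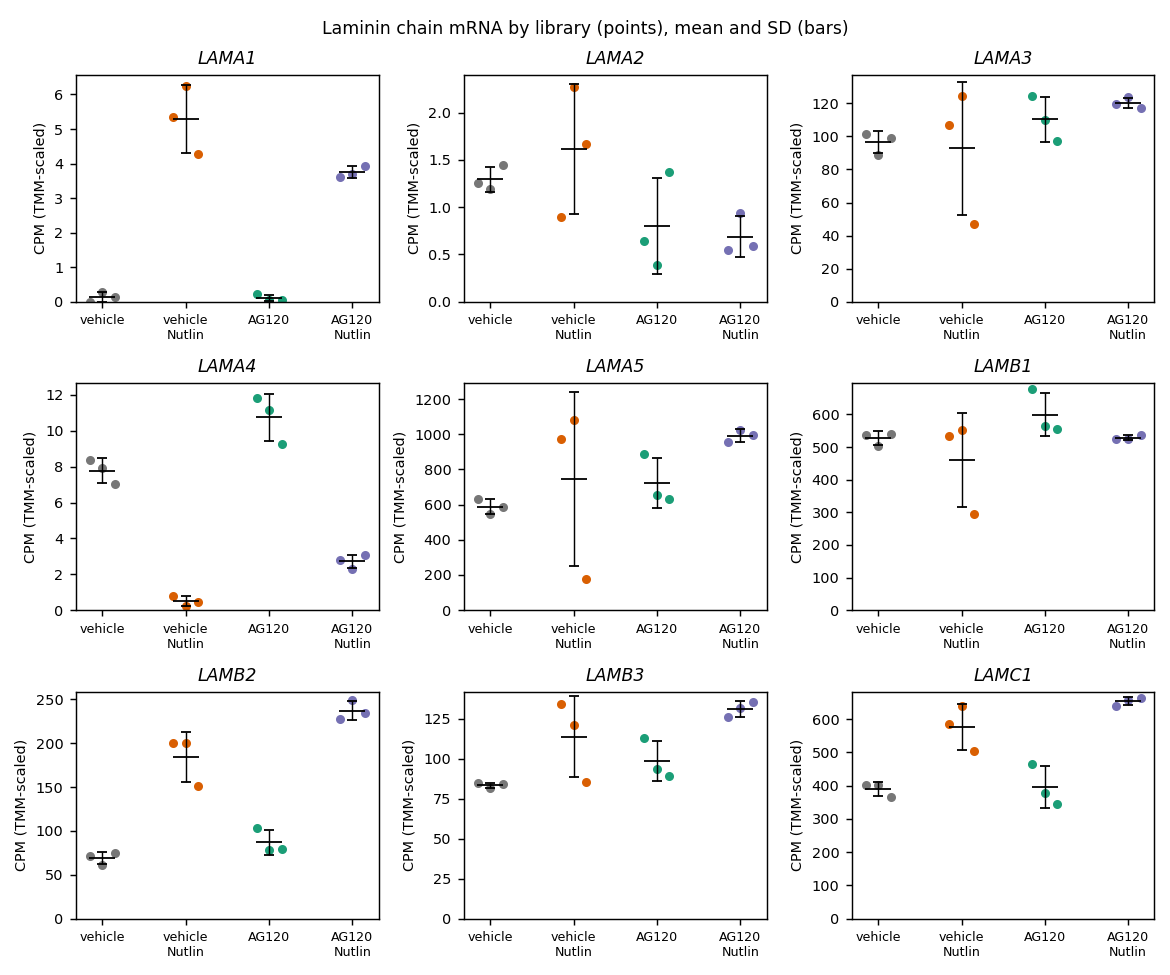
TMM-scaled CPM of the 9 laminin chains (vertical axes, each from 0) in the 4 groups (horizontal axes); points are libraries, bars the mean and SD of 3. LAMA4 is low in both Nutlin groups, LAMA1, LAMB2 and LAMC1 are high there, and 1 vehicle_Nutlin library (replicate 3) is low for LAMA3, LAMA5 and LAMB1.

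Among the alpha chains, LAMA4 mRNA was lower and LAMA1 mRNA higher with Nutlin, whichever the first treatment. LAMA4 stood at 8.37, 7.92 and 7.02 CPM in the vehicle libraries and at 0.794, 0.240 and 0.428 CPM in the vehicle_Nutlin libraries, on 4 to 15 counts per library. In AG120 it stood at 11.8, 11.1 and 9.28 CPM and in AG120_Nutlin at 2.77, 2.32 and 3.06 CPM. The 4 groups did not overlap, in the order AG120, vehicle, AG120_Nutlin, vehicle_Nutlin. The log2 fold change with Nutlin was -3.96 (SE 0.28), or 15.6-fold lower, in vehicle cells and -1.99 (SE 0.23), or 3.97-fold lower, in AG-120 cells. Over 22 alternative analyses these log2 fold changes ran from -4.45 to -3.29 and from -2.08 to -1.87. In bulk RNA, fewer cells with a transcript and less of it per cell cannot be told apart. The summed fibroblast markers given above were also lower with Nutlin, while the summed smooth muscle and pericyte markers were higher. The part of either in the LAMA4 values was not tested.

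LAMA1 had at most 5 counts in any library without Nutlin and at least 60 in each library with it. It held 0, 5 and 4 counts in vehicle and 101, 104 and 100 in vehicle_Nutlin, a level of 5.29 ± 0.980 CPM (mean ± SD, n = 3). In AG120 it held 5, 1 and 1 counts and in AG120_Nutlin 60, 75 and 67, or 3.75 ± 0.168 CPM. No Nutlin library came near a library without it. By scaled counts LAMA1 was 38.3-fold higher with Nutlin in vehicle cells (95% interval 19.9 to 84.6) and 33.6-fold in AG-120 cells (16.0 to 84.6), intervals that cover counting error only. LAMA1 passed the filter on low counts only through its Nutlin libraries, so its presence among the tested genes already depended on its being high there, and no p is given. Its level stayed far below that of the main alpha chain.

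LAMA5 and LAMA3, the epithelial alpha chains, were not called in either Nutlin response with all libraries, were called in some of the other fits, and had much of their spread from 1 library. LAMA5 stood at 632, 547 and 585 CPM in vehicle and at 970, 1083 and 176 CPM in vehicle_Nutlin, where replicate 3 lay below and the others above every vehicle library. The log2 fold change of LAMA5 was 0.34 (SE 0.44, adjusted p = 0.5397, edgeR). Without vehicle_Nutlin replicate 3 it was 0.80, and LAMA5 was called higher (adjusted p = 4.75e-05; over all leave-one-out fits the log2 fold change ran from -0.04 to 0.80). Without the 3 libraries that stood apart it was 0.70, on 1 vehicle_Nutlin library. In AG-120 cells LAMA5 stood at 888, 655 and 630 CPM without Nutlin and at 957, 1026 and 994 CPM with it. These groups did not overlap, and the log2 fold change of 0.45 (SE 0.44) had an adjusted p of 0.4045 in edgeR. In these cells too the call depended on the fit. LAMA5 was called higher without vehicle_Nutlin replicate 3, a library of neither group (0.44, adjusted p = 0.002695), in a fit of only the groups compared (0.45, adjusted p = 0.01098) and with no filter on low counts (0.44, adjusted p = 0.03443). Without the 3 libraries the value was 0.62 (adjusted p = 1.428e-08).

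LAMA3 stood at 102, 88.9 and 98.8 CPM in vehicle and at 107, 124 and 47.2 CPM in vehicle_Nutlin, with replicate 3 again the lowest. Its log2 fold change was -0.06 (SE 0.25, adjusted p = 0.8637) in vehicle cells and 0.12 (SE 0.25, adjusted p = 0.7059) in AG-120 cells. Without vehicle_Nutlin replicate 3 the vehicle value turned to 0.25 (adjusted p = 0.03916). Without the 3 libraries it was 0.13 in vehicle cells (adjusted p = 0.1642) and LAMA3 was called higher in AG-120 cells (0.21, adjusted p = 0.004969). LAMA2, the muscle and nerve chain, held 8 to 42 counts per library and overlapped in every comparison, at 1.30 ± 0.133 CPM in vehicle against 1.62 ± 0.690 CPM in vehicle_Nutlin, and 0.802 ± 0.508 CPM in AG120 against 0.689 ± 0.216 CPM in AG120_Nutlin. Its log2 fold changes with Nutlin, 0.30 (SE 0.43) and -0.19 (SE 0.49), were smaller than their errors.

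Among the beta chains LAMB2 rose most. Beta 2 is the beta chain of the glomerular and neuromuscular basement membranes and of vessel walls. LAMB2 stood at 71.1, 61.6 and 75.2 CPM in vehicle and at 200.3, 200.6 and 151 CPM in vehicle_Nutlin. It stood at 104, 78.3 and 79.2 CPM in AG120 and at 227, 249.5 and 235 CPM in AG120_Nutlin. Every Nutlin library was above every library without it. The log2 fold change was 1.41 (SE 0.14, edgeR adjusted p = 2.489e-06) in vehicle cells and 1.45 (SE 0.14, adjusted p = 1.725e-06) in AG-120 cells, and lay between 1.32 and 1.59 in every alternative analysis.

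LAMB3, the beta chain of the hemidesmosomal trimer, rose by less. It stood at 84.6, 81.5 and 83.9 CPM in vehicle and at 134, 121 and 85.4 CPM in vehicle_Nutlin, where replicate 3 was barely above the vehicle libraries. In AG120 it stood at 113, 93.7 and 89.0 CPM and in AG120_Nutlin at 126, 132 and 135 CPM, again without overlap. The log2 fold change was 0.45 (SE 0.14, edgeR adjusted p = 0.01924) in vehicle cells and 0.41 (SE 0.14, adjusted p = 0.02788) in AG-120 cells. The first call was lost without vehicle replicate 2 or vehicle_Nutlin replicate 1 or 2 (adjusted p = 0.05458, 0.08192 and 0.05676) and in a fit of those groups alone (0.05785). The second was lost without replicate 2 or 3 of AG120 or of AG120_Nutlin (adjusted p = 0.06179 to 0.0943).

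LAMB1 was not called in either Nutlin response. It stood at 538, 504 and 540 CPM in vehicle and at 535, 551 and 295 CPM in vehicle_Nutlin, where only replicate 3 was low. In AG120 it stood at 677, 565 and 557 CPM, above 524, 525.5 and 538 CPM in AG120_Nutlin. Its log2 fold changes were -0.20 (SE 0.18, edgeR adjusted p = 0.3934) and -0.18 (SE 0.18, adjusted p = 0.4334). Without vehicle_Nutlin replicate 3 the first turned to 0.04 and the second was called lower at -0.19 (adjusted p = 0.04311). The gene DLD overlaps LAMB1 and ADRM1 overlaps LAMA5 on the genome, and whether counting used strand is not given in the sources used here, so reads of these pairs may be shared.

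LAMC1, which encodes gamma 1, the gamma chain of most laminins, rose in both responses. It stood at 400.2, 403 and 367 CPM in vehicle and at 584, 640 and 504 CPM in vehicle_Nutlin. It stood at 466, 378 and 344 CPM in AG120 and at 639, 657 and 664 CPM in AG120_Nutlin. All Nutlin libraries were above all others. LAMC1 changed by 0.56 on the log2 scale (SE 0.12, edgeR adjusted p = 0.001801) in vehicle cells and 0.72 (SE 0.12, adjusted p = 0.0002474) in AG-120 cells.

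In all, 5 of 9 chains were called in the Nutlin response of vehicle cells (4 higher, 1 lower), where 53.9% of 15691 tested genes were called (26.8% higher, 27.1% lower). In AG-120 cells 5 of 9 were called as well (4 higher, 1 lower), against 55.7% of all genes (27% higher, 28.8% lower). The 1 lower chain was LAMA4, by which the set was chosen. LAMA1, among the 4 higher, passed the filter only through libraries with Nutlin, so its call carries no weight here. Of the 8 chains other than LAMA4, 4 were called higher and 0 lower in each response. Leaving LAMA1 aside, these were LAMB2, LAMB3 and LAMC1. The counts without overlap and the medians below include LAMA4 and LAMA1 as well. Without vehicle_Nutlin replicate 3 the chains called were 7 of 9 in each response, LAMA4 and LAMA1 among them. In that fit 29.1% of all genes were called higher and 29.1% lower in vehicle cells. In AG-120 cells these shares were 31.1% and 33.1%. The libraries of the groups compared did not overlap for 5 chains in vehicle cells, against 59.3% of all genes (28.3% higher, 30.9% lower), and for 7 chains in AG-120 cells, against 70.2% (35.1% in each direction). The median log2 fold change of the 9 chains was 0.34 and 0.41, against -0.02 and 0.00 over all genes.

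**Figure D2:**
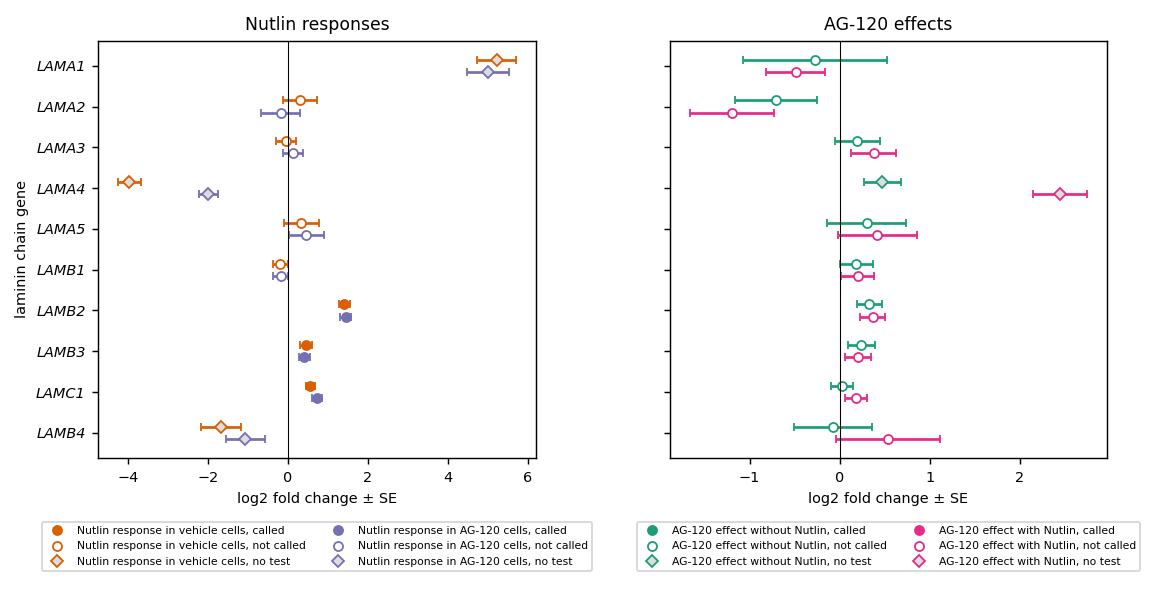
Log2 fold change ± SE (horizontal axes) of the 9 chains and of LAMB4 (vertical axis) in both Nutlin responses (left) and both AG-120 effects (right); filled points passed an adjusted p of 0.05 in edgeR. Grey diamonds mark values with no test: LAMA4, and on the left LAMA1 and LAMB4, which passed the filter only through the libraries where they were high. LAMA4 lies at -3.96 and -1.99 on the left and at 0.47 and 2.45 on the right, where no chain is filled.

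LAMC3 and LAMB4, laminin chain genes outside the set, were looked at too. LAMC3, a gamma chain known from brain and retina, had 0 counts in all vehicle libraries and 106, 150 and 73 in vehicle_Nutlin, at least 124-fold higher if the vehicle group is set to a floor of 3 counts in sum. In AG120 it had 0, 0 and 3 counts and in AG120_Nutlin 127, 152 and 122, a ratio of 156 with a 95% counting interval of 52.8 to 757. LAMB4 stayed under 1 CPM in every library, with 11, 9 and 22 counts in vehicle and 5, 3 and 3 in vehicle_Nutlin, then 19, 7 and 11 in AG120 and 3, 8 and 4 in AG120_Nutlin. LAMC3 passed the filter only through libraries with Nutlin and LAMB4 only through libraries without it, so no p is given for either.

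The make-up of the beta class, as shares of its summed CPM per kb, shifted with Nutlin. LAMB2 made up 9.90% ± 0.614 of beta chain transcripts in vehicle, 23.9% ± 2.94 in vehicle_Nutlin, 10.7% ± 0.487 in AG120 and 25.5% ± 0.905 in AG120_Nutlin (mean ± SD, n = 3). LAMB1 went from 74.3% to 56.9% and from 73.1% to 56.0%. No library with Nutlin overlapped one without it in the shares of LAMB1 or LAMB2. Among alpha chains LAMA5 held 83.2% to 87.7% in every group's mean (88.5% in vehicle_Nutlin without replicate 3). LAMA4 held 1.92% ± 0.182 in vehicle, 0.160% ± 0.145 in vehicle_Nutlin, 2.20% ± 0.240 in AG120 and 0.420% ± 0.0655 in AG120_Nutlin. The vehicle_Nutlin libraries were at 0.127%, 0.0341% and 0.319%, and without replicate 3, where LAMA5 was low, the mean was 0.0804%. LAMA1 held 1.04% ± 0.846 in vehicle_Nutlin and 0.366% ± 0.0175 in AG120_Nutlin, and at most 0.0474% in any library without Nutlin. Its vehicle_Nutlin mean also rests on replicate 3: the libraries were at 0.539%, 0.560% and 2.01%, and the mean without that library was 0.549%. These shares depend on the transcript length chosen for each gene.

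**Figure D3:**
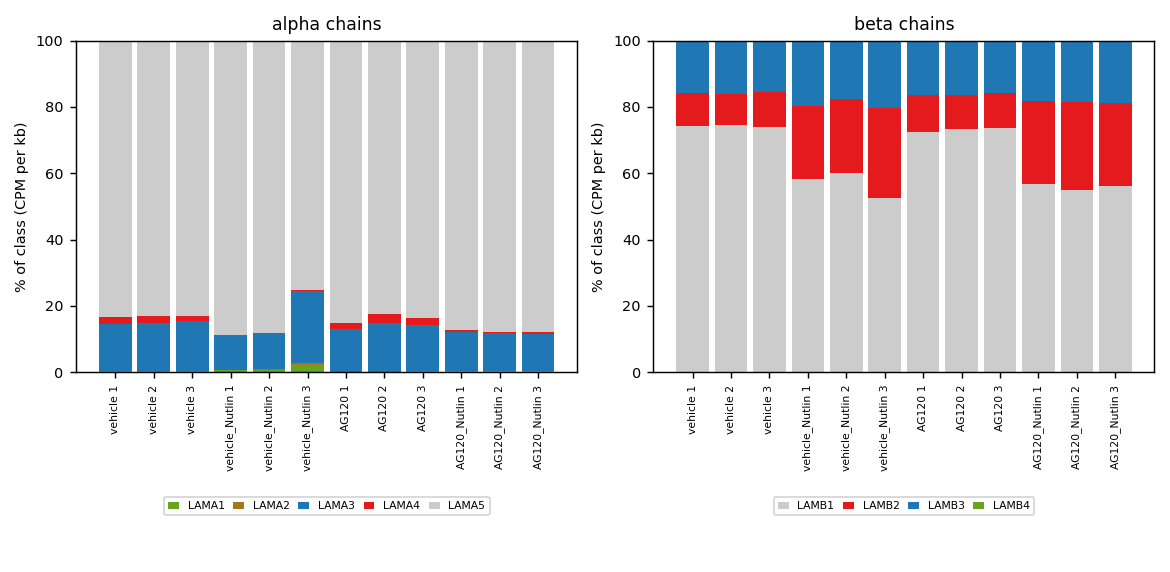
Share of each chain in the summed CPM per kb of its class (vertical axes, percent) in each of the 12 libraries (horizontal axes), for alpha and beta chains. The LAMB2 segment is wider in all 6 Nutlin libraries, and LAMA5 fills 75.2% or more of the alpha class in every library.

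Between AG-120 and vehicle cells that had received no Nutlin, edgeR called 0 of the 8 chains other than LAMA4, where 0.051% of all genes were called. At an unadjusted p under 0.05 there was 1, and DESeq2 also called 0. The groups did not overlap for LAMA4, LAMB1, LAMB2 and LAMB3, all higher in AG120, while 21.8% of all genes showed no overlap (11.4% higher, 10.3% lower). LAMA4 had a log2 fold change of 0.47 (SE 0.21), LAMB2 one of 0.33 (SE 0.14, adjusted p = 0.5795), LAMB3 one of 0.24 (SE 0.14, adjusted p = 0.7113) and LAMB1 one of 0.19 (SE 0.18, adjusted p = 0.8466). The 5 remaining chains lay between -0.71 and 0.30 (adjusted p = 0.7335 to 0.9825).

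Under Nutlin, edgeR called 0 of the 8 chains other than LAMA4 between AG-120 and vehicle cells, where 2.36% of all genes were called (0.433% higher, 1.93% lower). At an unadjusted p under 0.05 there were 2, LAMA2 and LAMB2, and DESeq2 called 0. The 6 chains other than LAMA1, LAMA4 and LAMB2 lay between -1.20 (LAMA2) and 0.42 on the log2 scale (edgeR adjusted p = 0.1855 to 0.6006). LAMA4 is given as a description. Its 145 counts over the AG120_Nutlin libraries and 29 over the vehicle_Nutlin libraries gave a scaled ratio of 5.47 (95% counting interval 3.65 to 8.46). The log2 fold change was 2.45 (SE 0.30) and ran from 1.77 to 2.95 over 22 alternative analyses. LAMA1 was lower in each AG120_Nutlin library than in each vehicle_Nutlin library (-0.49, SE 0.33, edgeR adjusted p = 0.4193) and LAMB2 higher (0.37, SE 0.14, adjusted p = 0.1716), and 28.3% of all genes showed no overlap.

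The difference between the Nutlin responses, AG-120 minus vehicle cells, was 1.98 (SE 0.37) on the log2 scale for LAMA4. The drop was the smaller one in AG-120 cells. The value ran from 1.37 to 2.47 over 21 alternative analyses, and 12 of these did not call LAMA4, among them 10 of 12 leave-one-out fits. Of the 8 other chains edgeR called 0, where 0.363% of all genes were called (0.0319% higher), with 0 at an unadjusted p under 0.05 and 0 by DESeq2. They differed by -0.49 to 0.18 (edgeR adjusted p = 0.7523 to 0.9887). The largest SE among them was 0.96, for LAMA1, and the smallest 0.17, for LAMC1, so the data limit the difference far more tightly for LAMC1 than for LAMA1.

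The laminin chains are long transcripts, and each library's deviation from its group was set against transcript length. Each deviation was taken from the mean of the other libraries of the group, so deviations within a group are tied to each other. A library that lies low raises the deviations of the others in its group. The chains' longest transcripts run from 4305 to 11426 bases, against a median of 3547 over the tested genes with a known length. Taken across genes, a description with no p because genes are no replicates, the deviation of vehicle_Nutlin replicate 3 from its group had a Spearman correlation of -0.330 with transcript length. For replicate 1 of that group the correlation was 0.319 and for replicate 2 it was 0.194. The AG120 libraries had values of 0.383 for replicate 1, -0.222 for replicate 2 and -0.367 for replicate 3. Libraries of the vehicle and AG120_Nutlin groups lay from -0.080 to 0.093. In vehicle_Nutlin replicate 3, LAMA5 lay 2.54 below the other libraries of its group on the log2 scale (-2.54), LAMA3 at -1.29 and LAMB1 at -0.88. LAMC1 lay at -0.28 and LAMA4 at -0.06 in that library. The values of LAMA3, LAMA5 and LAMB1 without that library are given with each gene above, and the part of transcript length in them was not tested beyond the length offset.

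**Figure D4:**
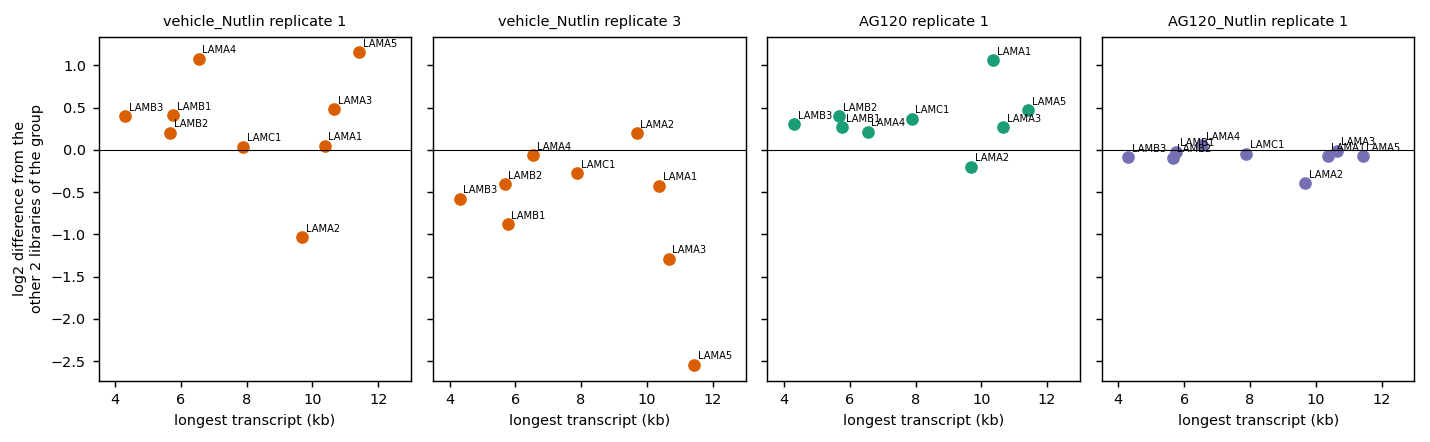
Deviation of each chain from the other libraries of its group (vertical axis, log2) against the length of its longest transcript (horizontal axes, kb) in 4 libraries; points are genes. LAMA5 lies at -2.54 in vehicle_Nutlin replicate 3 and at 1.15 in vehicle_Nutlin replicate 1, while all chains but LAMA2 lie near 0 in AG120_Nutlin replicate 1. Deviations within a group are tied to each other, so the 1.15 of replicate 1 reflects in part the low replicate 3.

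Receptors of laminins moved in both directions. Of 13 receptor genes 4 rose and 5 fell in the Nutlin response of vehicle cells (median log2 fold change -0.29) and 4 rose and 5 fell in AG-120 cells (median -0.27). For these and the lists that follow, the shares over all genes were 26.8% higher and 27.1% lower in vehicle cells and 27% higher and 28.8% lower in AG-120 cells. Without the 3 libraries that stood apart, 4 receptors were called higher and 8 lower in each response, against 28.6% and 29.3% of all genes in vehicle cells and 32.9% and 34.7% in AG-120 cells. MCAM, an adhesion molecule known to bind alpha 4 laminins, stood at 171.5, 181 and 175.5 CPM in vehicle and at 65.0, 57.3 and 59.1 CPM in vehicle_Nutlin. It stood at 204.5, 204.2 and 204.2 CPM in AG120 and at 39.1, 38.6 and 41.2 CPM in AG120_Nutlin. MCAM fell by 1.54 (SE 0.08, edgeR adjusted p = 5.913e-09) and by 2.37 (SE 0.08, adjusted p = 1.416e-10) on the log2 scale. The difference between the responses was -0.83 (SE 0.11, adjusted p = 0.006473), a larger fall in AG-120 cells, opposite in sign to the 1.98 of LAMA4. The syndecans SDC1 and SDC4, proteoglycans that bind the end of the alpha chain, rose by 1.99 and 1.83 in vehicle cells (adjusted p = 8.562e-09 and 6.295e-07) and by 2.06 and 1.61 in AG-120 cells. ITGA2, a subunit of a collagen and laminin integrin, rose by 1.12 (adjusted p = 2.203e-06) and 1.47 (adjusted p = 1.553e-07).

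Without Nutlin, edgeR called 0 of 13 receptors between AG-120 and vehicle cells, and 1, MCAM, had an unadjusted p under 0.05 (without the 3 libraries 1 was called higher and 1 lower). Under Nutlin 1 receptor was higher and 2 lower in AG-120 cells. The lower ones were MCAM (-0.61, edgeR adjusted p = 0.002125) and CD151, a tetraspanin partner of laminin integrins (-0.51, adjusted p = 0.04057). The 1 higher gene was ITGA7, a subunit of a muscle laminin integrin, picked after its value was seen (0.88, adjusted p = 0.04437). In a fit of only the groups compared 0 of all genes were called higher, so ITGA7 was not called there. Of all genes 0.051% were called without Nutlin, and 0.433% were called higher and 1.93% lower under it. Without vehicle_Nutlin replicate 3, 2 receptors were called higher and 3 lower under Nutlin, against 1.27% and 2.99% of all genes.

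Of 18 basement membrane partners 14 were tested, and 3 rose and 8 fell in vehicle cells (median -0.83) while 3 rose and 7 fell in AG-120 cells (median -0.45). Without the 3 libraries 5 were called higher and 8 lower in each response. COL4A5, a chain of type IV collagen, rose by 3.06 (SE 0.18, edgeR adjusted p = 1.555e-08) and 3.44 (adjusted p = 5.176e-09). COL4A2, from the more widespread type IV collagen, fell by 1.96 (SE 0.30, adjusted p = 0.0001029) and 2.53 (adjusted p = 1.167e-05). COL15A1, a collagen of basement membrane zones, stood at 0.201 ± 0.131 CPM in vehicle and 6.67 ± 1.05 CPM in vehicle_Nutlin, and at 0.373 ± 0.408 CPM in AG120 and 5.47 ± 0.437 CPM in AG120_Nutlin. It passed the filter only through libraries with Nutlin, so no p is given and a call of it carries no weight in the counts. FBLN1, fibulin 1, which binds laminin and nidogen, fell by 1.60 (SE 0.10, adjusted p = 2.769e-08) and 2.45 (adjusted p = 6.403e-10). Its difference between the responses was -0.85 (SE 0.14, edgeR adjusted p = 0.01907), and FBLN1 was the 1 partner of 14 called there. Of all genes 0.0319% were called higher and 0.331% lower in that difference. Without vehicle_Nutlin replicate 3, 0 partners were called higher and 3 lower there, against 0.224% and 1.29% of all genes.

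**Figure D5:**
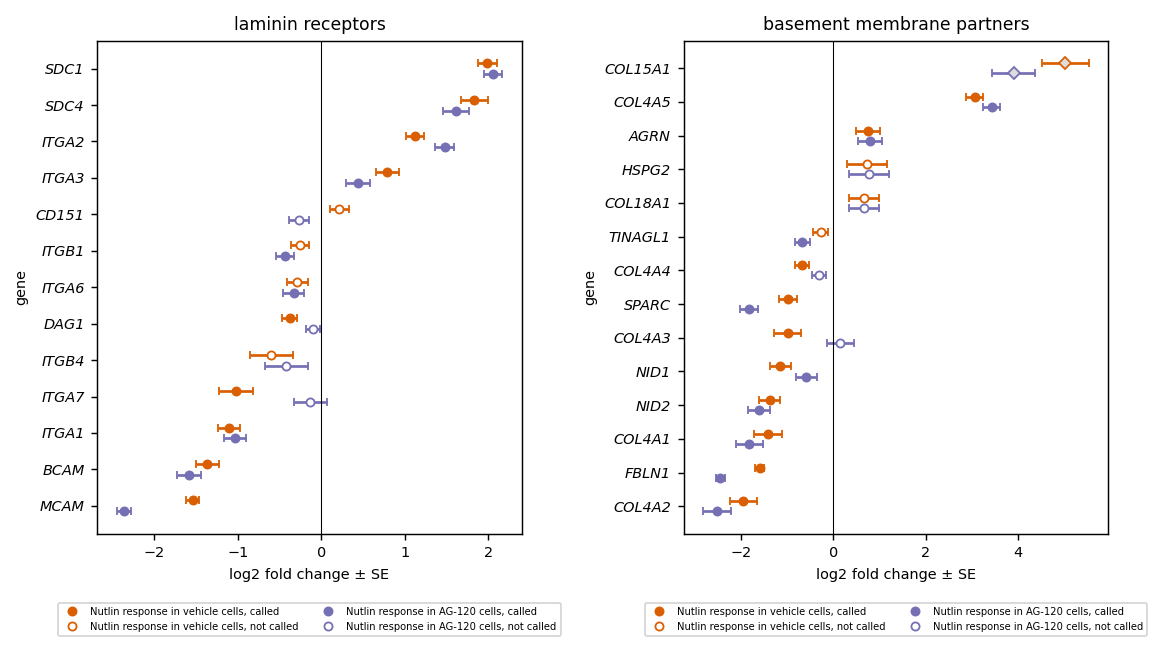
Log2 fold change ± SE with Nutlin (horizontal axes) of 13 laminin receptors (left) and 14 tested basement membrane partners (right) in vehicle and AG-120 cells; filled points were called, and the grey diamonds are COL15A1, with no test. MCAM and FBLN1 lie further below 0 in AG-120 cells than in vehicle cells, and SDC1, COL4A5 and COL15A1 lie above 0 in both.

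Of 7 hemidesmosome genes, which join epithelial cells to laminin, 1 rose and 0 fell in vehicle cells and 1 rose and 1 fell in AG-120 cells. These counts depend on the libraries that stood apart: without the 3, 1 was called higher and 3 lower in vehicle cells and 2 higher and 3 lower in AG-120 cells. The riser with all libraries was COL17A1, which went from 25.4 ± 1.86 to 288 ± 106 CPM in vehicle cells and from 18.04 ± 1.37 to 449 ± 21.1 CPM in AG-120 cells (edgeR adjusted p = 5.449e-08 and 5.489e-09). Of 5 tested netrin relatives, secreted proteins built on laminin domains, 1 rose and 2 fell in vehicle cells and 2 rose and 1 fell in AG-120 cells (1 higher and 1 lower, then 2 higher and 1 lower, without the 3 libraries). NTN1 stood at 0.539 ± 0.255 CPM in vehicle and 25.7 ± 9.87 CPM in vehicle_Nutlin, and at 0.346 ± 0.207 CPM in AG120 and 28.2 ± 1.02 CPM in AG120_Nutlin. It too passed the filter only through libraries with Nutlin, as NTN5 did, while NTN3 passed only through those without it. Calls of NTN1, NTN3 and NTN5 therefore carry no weight in the netrin counts. NTN4, which binds gamma chains, fell by 0.83 and 1.16 on the log2 scale (edgeR adjusted p = 1.494e-06 and 5.673e-08).

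Of 12 genes that build the laminin-binding sugar of dystroglycan, 4 rose and 2 fell in each response (without the 3 libraries 5 and 3, then 6 and 3). B4GAT1 rose by 1.57 and 1.30 on the log2 scale (edgeR adjusted p = 1.807e-07 and 8.903e-07) and POMGNT1 by 1.06 and 1.07 (adjusted p = 4.135e-06 and 3.548e-06). Of 5 tested proteases known to cut laminin chains, 2 rose and 0 fell in vehicle cells and 2 rose and 1 fell in AG-120 cells (without the 3 libraries 3 and 0, then 3 and 1). The risers with all libraries were MMP14, a membrane metalloprotease, at 1.90 and 2.19 (adjusted p = 2.605e-07 and 6.268e-08), and BMP1, at 1.60 and 1.33 (adjusted p = 2.086e-07 and 9.488e-07). TLL1, the 1 lower protease, passed the filter only through libraries without Nutlin and TLL2 only through those with it. A call of either carries no weight in the protease counts. All these lists were written with earlier results of these data known.

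The genes whose pattern lay closest to LAMA4 were RARRES2, PACSIN1, KCNK5, VIL1 and TTC22. Closeness was the root mean square difference in log2 CPM over the 12 libraries after centring each gene, and the ranking held the 13636 tested genes that averaged 1 CPM or more. It was 0.522 for RARRES2, 0.547 for PACSIN1, 0.551 for KCNK5, 0.560 for VIL1 and 0.567 for TTC22, against a median of 1.72. RARRES2, which encodes the secreted factor chemerin, had means of 10.9 CPM in vehicle and 0.839 CPM in vehicle_Nutlin, then 10.99 CPM in AG120 and 2.07 CPM in AG120_Nutlin. VIL1, villin of the brush border, went from 2.07 to 0.0672 CPM in vehicle cells and from 2.41 to 0.245 CPM in AG-120 cells. No other laminin chain was near: LAMB1 at 1.59 was the closest of the 8 others and LAMA1 at 3.89 the farthest.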

How the data were processed

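RNA from 12 libraries of RBE cells was analysed, in 4 groups of 3 taken from the labels. Raw read counts by gene symbol, with hg19 positions, make up the table the authors deposited; per the submitters' processing notes Partek, STAR, HTSeq and DESeq2 were used on hg19, without versions, and their order is not given in the sources used here. From these counts, genes were kept by filterByExpr (15691 of 55773) and TMM-scaled (trimmed mean of M values). All 12 libraries entered 1 quasi-likelihood fit of the group means (edgeR 4.0.16, R 4.3.3), with Benjamini-Hochberg adjustment over all tested genes in each of 5 comparisons and calls at an adjusted p of at most 0.05. The SE is the log2 fold change divided by the root of the F statistic. Levels per kb use the longest GENCODE transcript. Library totals ran from 16840161 to 27499433, with a median of 19221201. The labels name no molecular identifiers and reads are not independent molecules, so intervals built on reads cover counting error only. Replicates of every group differed by more than sampling noise, with a chi-square per degree of freedom of 2.85 to 147.

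The members and all lists were chosen with earlier results of these data known. Named are all members, the other laminin chain genes, up to 4 genes per list with the smallest adjusted p in the Nutlin response of vehicle cells, up to 2 in each other comparison, and the 5 genes most like LAMA4. Some of these genes are not reported here. As alternatives, DESeq2 1.42.0 replaced edgeR, its size factors or plain library totals replaced TMM, the filter was dropped or set to 1 CPM in 3 libraries, replicate numbers entered as a block, groups outside a comparison were left out, single libraries or the 3 that stood apart were left out, and an offset for transcript length, known for 90.3% of tested genes, was used alone and with the block. Using the union of exons as length, and counting the gene lists without the libraries that stood apart, were chosen after seeing the data.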

Additional observations from a re-analysis of the deposited data

Results flagged for a closer look

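LAMA4 differed between the Nutlin responses by 1.98 on the log2 scale (AG-120 minus vehicle cells, SE 0.37), with a response of -3.96 in vehicle cells and -1.99 in AG-120 cells. It was picked out because the interaction term passed the threshold, which it did not do in 10 of 12 leave-one-out fits. LAMA4 gave the set its name with earlier results of these data known, so this is a description. The smaller drop rests on 29 counts over the vehicle_Nutlin libraries and 145 over the AG120_Nutlin libraries. The value was 1.37 without the 3 libraries that stood apart, a fit with 1 vehicle_Nutlin library, which is assumed to vary like the other groups.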

How the results depend on the processing

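Chains called in the difference between the Nutlin responses, in all and higher, ran from 0 to 1 over the leave-one-out fits. They were 0 in 10 of these 12 fits, 0 with the replicate block and 0 with the length offset and block. Only LAMA4 made up this count. Between AG-120 and vehicle cells under Nutlin the counts were 0 in a fit of only the groups compared. Chains called lower in the Nutlin response of AG-120 cells ran from 1 to 2 over leave-one-out, the 2 without vehicle_Nutlin replicate 3. In the Nutlin response of vehicle cells LAMA2 turned to -0.56 and LAMA3 to 0.13 without the 3 libraries that stood apart, and LAMA3 to 0.047 with the length offset and 0.023 with the length offset and block. Over leave-one-out these log2 fold changes ran from -0.0025 to 0.60 for LAMA2, from -0.32 to 0.25 for LAMA3, from -0.035 to 0.80 for LAMA5 and from -0.34 to 0.036 for LAMB1, and in AG-120 cells from -0.50 to 0.42 for LAMA2. Single chains in the AG-120 comparisons were followed only where the report gives them one by one, a choice made after seeing that uncalled values near 0 changed sign: of the chains not called, 4 of 4, 1 of 4, 2 of 9, 3 of 8 and 7 of 8 did so in some setting, in the order of both Nutlin responses, both AG-120 effects and the difference. With the union of exons as length the alpha shares were 0.258% (LAMA2), 13.5% (LAMA3), 1.39% (LAMA4) and 84.8% (LAMA5) in vehicle, 1.58% (LAMA4) and 85.5% (LAMA5) in AG120, and 0.303% (LAMA1), 10.48% (LAMA3), 0.301% (LAMA4) and 88.8% (LAMA5) in AG120_Nutlin; 11 beta shares also moved by more than 1 SD. Same-numbered libraries of different groups correlated between -0.22 and 0.12 in their deviations, and differently numbered ones between -0.19 and 0.21. With 3 libraries per group this check cannot exclude a modest batch shared by number. The block changed no other count of chains. Low counts limit LAMA4 in vehicle_Nutlin, LAMA1 without Nutlin, and LAMA2.

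Over all genes the AG-120 effect without Nutlin called 8, but 110 with DESeq2, 104 with no filter, 13 with the 1 CPM filter, 4 with the block, 29 with only the groups compared, 908 without the 3 libraries, 19 with the length offset, 5 with offset and block, and 1 to 241 over leave-one-out. With Nutlin it called 371, but 877 with DESeq2, 1272 with no filter, 211 with the block, 15 with only the groups compared, 1374 without the 3 libraries, 194 with offset and block, and 61 to 1037 over leave-one-out. The difference called 57, but 211 with DESeq2, 283 with no filter, 32 with the block, 637 without the 3 libraries, and 23 to 243 over leave-one-out.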
